A study of Mus musculus with 5 samples.

Results

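Orosomucoids, haptoglobin, lipocalin 2, the inter-alpha-trypsin inhibitor heavy chains and fibrinogen are plasma proteins that the liver secretes in larger amounts during the acute phase response to injury. The 10 genes Orm1, Orm2, Orm3, Hp, Lcn2, Itih3, Itih4, Fga, Fgb and Fgg, of 31053 genes in the deposited matrices, were followed in hepatocytes. The rule that chose them names the genes and uses no measured value, though it was written with earlier results of these data known. The cells came from livers of C57BL/6J mice, run on a 10x v3 droplet kit as 5 libraries, 1 per group. One library came from normal mice at postnatal day 14 (P14) and one from adult control mice (the control). The other 3 came from adults that underwent partial hepatectomy (PHx), in which a surgeon takes out most of the liver, at 8 weeks of age, and were collected after 24 h, 48 h or 96 h. In all groups cells were released by perfusion and passed through a dead-cell removal kit. The protocol lists the adult control with the operated samples, as mice of the same age of 8 weeks, whereas its title and source call it a control, and it was treated as the control here. The labels give neither sex nor the number of animals, and no sham-operated group is among the samples.

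In the acute phase response, cytokines of the interleukin-6 and interleukin-1 families reach hepatocytes from macrophages and other cells. The kinases and the transcription factor Stat3 carry the interleukin-6 signal, C/EBP and NF-kB factors act with it, and Socs3 is the inhibitor it induces. Fibrinogen is the textbook target of interleukin-6 alone (class 2), whereas orosomucoid and haptoglobin respond to interleukin-1 and interleukin-6 together (class 1). Orosomucoids are small carriers of the lipocalin family, and lipocalin 2 binds bacterial iron carriers. Haptoglobin captures free haemoglobin, and the 3 fibrinogen chains are assembled into the precursor of the clot. The inter-alpha-trypsin inhibitor heavy chains stabilise the hyaluronan matrix, and Itih4 is a plasma substrate of kallikrein.

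All 10 gene identifiers are in GENCODE M21 as protein-coding genes, and positions are given on GRCm38, since mm10 is the build named in the submitters' processing notes. The 3 orosomucoid genes lie side by side on the plus strand of chromosome 4, Orm1 at chr4:63344560-63348163, Orm3 at chr4:63356162-63359511 and Orm2 at chr4:63362449-63365878. The 3 fibrinogen genes lie together on chromosome 3, Fgg at chr3:83007724-83015049, Fga at chr3:83026076-83033627 and Fgb, on the minus strand, at chr3:83040141-83049863. Itih4 (chr14:30886476-30902353) and Itih3 (chr14:30908572-30923760) are also neighbours. Lcn2 is at chr2:32384633-32388252 and Hp at chr8:109575128-109579172. The longest Orm1 and Orm2 transcripts were 91.0% identical over 775 aligned positions, and 67 of the 686 stretches of 90 bases in Orm1 (9.77%) also occur in Orm2. Neither shares such a stretch with Orm3, to which Orm1 was 86.1% and Orm2 88.0% identical. How reads from stretches shared by Orm1 and Orm2 were counted is not given in the sources used here, so the separate values of these 2 genes are less certain than those of the other genes. Those of Orm3 rest on few UMIs.

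RefSeq promoters of GRCm38.p6 were matched by symbol for 8 of the 10 genes, all but Orm1 and Hp. The 250 bases before the start are shown for the neighbours Orm2 and Orm3, whose levels differed in opposite directions between 24 h and 48 h, and for Fgb and Fgg, whose levels had nearly the same shape over the 5 libraries. Capitals mark matches, on either strand, to 5 motifs: CTGGGAA (the interleukin-6 response element core), TTCNNNGAA (STAT), the STAT motif with a longer spacer, TTGCNNAA (C/EBP), and the NF-kB motif.
Orm2, chr4:63362199-63362448, plus strand: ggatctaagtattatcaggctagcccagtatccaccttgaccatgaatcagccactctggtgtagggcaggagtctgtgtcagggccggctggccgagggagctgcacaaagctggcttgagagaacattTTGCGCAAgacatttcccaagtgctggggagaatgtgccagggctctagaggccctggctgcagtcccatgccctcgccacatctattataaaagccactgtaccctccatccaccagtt
Orm3, chr4:63355908-63356157, plus strand: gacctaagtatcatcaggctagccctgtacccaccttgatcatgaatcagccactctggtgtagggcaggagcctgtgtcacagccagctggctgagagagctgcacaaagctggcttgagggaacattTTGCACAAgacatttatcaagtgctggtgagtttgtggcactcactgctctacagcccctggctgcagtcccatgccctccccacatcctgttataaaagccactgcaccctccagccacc
Fgb, chr3:83049864-83050113, minus strand: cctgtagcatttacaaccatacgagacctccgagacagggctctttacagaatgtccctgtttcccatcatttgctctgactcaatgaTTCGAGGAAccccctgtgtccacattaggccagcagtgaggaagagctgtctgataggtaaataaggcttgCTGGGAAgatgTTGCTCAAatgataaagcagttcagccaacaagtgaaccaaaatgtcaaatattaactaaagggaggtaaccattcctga
Fgg, chr3:83007474-83007723, plus strand: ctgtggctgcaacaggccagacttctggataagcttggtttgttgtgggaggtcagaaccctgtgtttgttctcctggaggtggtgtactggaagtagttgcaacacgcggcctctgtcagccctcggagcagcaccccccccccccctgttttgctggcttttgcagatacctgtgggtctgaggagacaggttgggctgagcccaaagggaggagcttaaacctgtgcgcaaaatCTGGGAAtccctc

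The Orm2 and Orm3 stretches were identical at 218 of 255 aligned positions (85.5%), and each holds 1 C/EBP match, TTGCGCAA in Orm2 and TTGCACAA in Orm3. The Fgb stretch holds, within 91 bases of the start, the interleukin-6 core followed by a C/EBP match, TTGCTCAA, and farther out a STAT match, TTCGAGGAA. The Fgg stretch holds the interleukin-6 core 13 bases before the start. Among all 8 promoters, from 250 bases before to 50 after the start, the interleukin-6 core was in 3, the STAT motif with the 3-base spacer in 3 (Fga, Fgb and Itih4), the one with the 4-base spacer in 1 (Lcn2) and the C/EBP motif in 5. Over all 32851 promoters of that length the shares were 11.1%, 8.30%, 6.95% and 10.8%. The NF-kB letters were in none of the 8 windows, and in 0.411% of all. A match is a string of letters and not a measured site.

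Hepatocytes were barcodes of at least 5000 UMIs (unique molecular identifiers, 1 per captured RNA molecule) with 10% to 30% mitochondrial UMIs and at least 1% of UMIs from Alb, Apoa1 and Ttr. They numbered 2106 in P14, 925 in the control, 1170 after 24 h, 719 after 48 h and 771 after 96 h. Their median depth was 38923 UMIs in P14 and between 18527 and 35432 in the adult libraries, and their median share of Alb, Apoa1 and Ttr UMIs was 11.2% in P14 and between 2.10% (24 h) and 5.77% (96 h) in adults. All 9 hepatocyte markers were detected in each library, but Alb, Apoa1 and Ttr among them are part of the rule and add no independent support. Between 125 and 206 of the hepatocytes of a library lay within 2 percentage points under the mitochondrial limit, and 1701 barcodes of hepatocyte type lay above it at 96 h, against 363 to 501 elsewhere. Of the 10 pairs of libraries, 2 shared hepatocyte barcodes (2 and 1). Levels are UMIs per 1000000 summed UMIs (CPM) without the 13 mitochondrial genes, with exact 95% Poisson intervals that cover counting error only. With 1 library per group there is no spread between animals and no test, so "2-fold higher" or "lower" describes these libraries. A gene entered a comparison at 5 CPM or more in either library, and log2 ratios are of CPM plus a pseudocount of 1. The 4 comparisons with the control share that library.

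The 10 genes together took 1.55% of hepatocyte UMIs in the control, then 4.59% after 24 h, 5.93% after 48 h and 1.67% after 96 h, and 1.69% in P14. At 24 h 7 of 9 genes were at least 2-fold higher than in the control, where 8.51% of 9028 genes were. The 10th gene, Orm3, was 2-fold higher too, but it passed the 5 CPM minimum only through its 24 h level, so that its call follows in part from the minimum. Hp and Itih4 were higher by less than 2-fold, and none of the 10 was 2-fold lower, against 7.13% of all genes. At 48 h, 8 of the 9 genes that passed the minimum were 2-fold higher, with a background of 8.3% higher and 7.63% lower among 9035 genes. At 96 h 1 of 9, Lcn2, was 2-fold higher and none lower, against 4.07% and 1.88% of 8890 genes. The median log2 ratio of the genes that passed came to 1.23 after 24 h (1.17 without Orm3), 1.61 after 48 h and 0.06 after 96 h, and that of all genes tested to -0.000861, -0.08 and 0.04. With the acute phase genes left out of the total, the share of all genes called higher against lower moved to 11.04% against 6.01% at 24 h and to 11.95% against 5.25% at 48 h, and the number of the 10 genes that were 2-fold higher was again 8 at both times, Orm3 counted at 24 h.

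**Figure D1:**
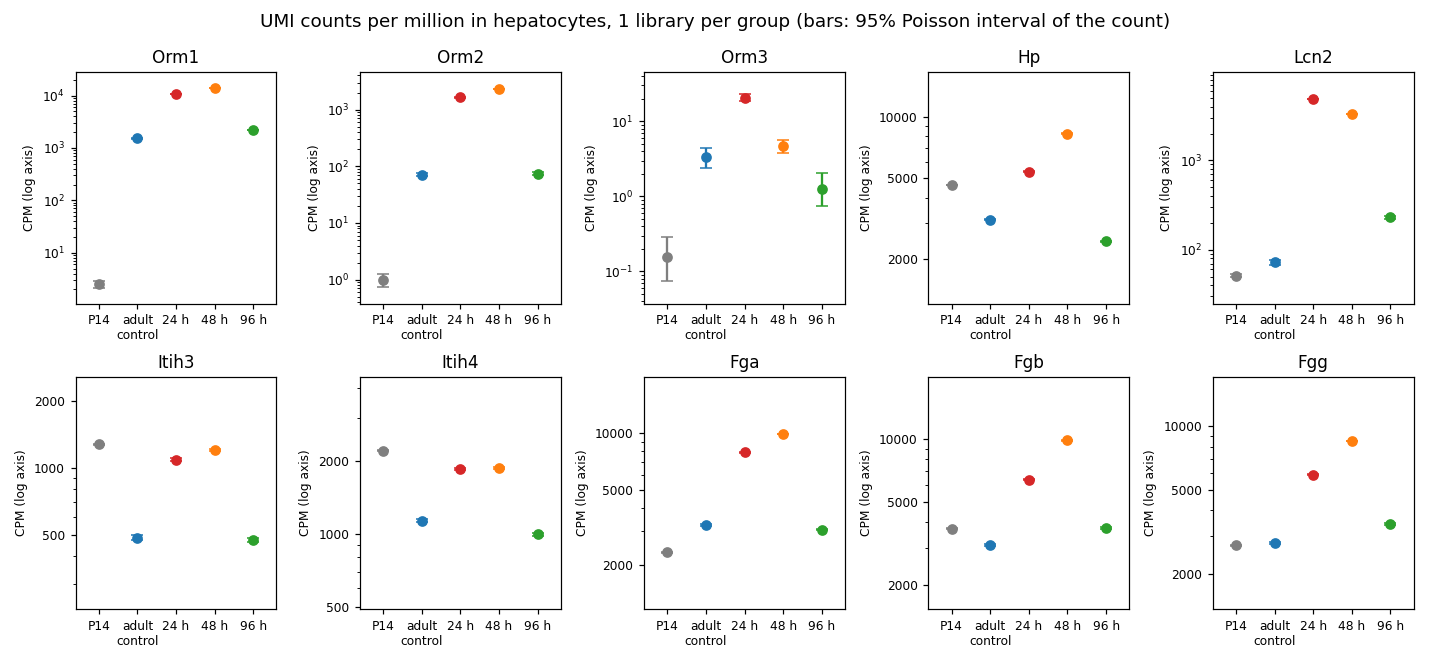
CPM of each gene in hepatocytes of the 5 libraries, on a log axis with its own range for each gene; points are libraries and bars are 95% Poisson intervals of the count. Orm1 and Orm2 are near 0 in P14, Lcn2 is highest at 24 h (4874 CPM), and Orm1, Orm2, Hp and the 3 fibrinogen chains are highest at 48 h.

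Orm1 and Orm2 were the orosomucoids with high counts. Orm1 stood at 2.49 CPM in P14 (161 UMIs), 1519.9 in the control, then 10889 after 24 h, 14114 after 48 h and 2205 after 96 h. It was 7.16-fold (7.06 to 7.27) higher than the control at 24 h, 9.29-fold (9.16 to 9.42) after 48 h and 1.45-fold (1.42 to 1.48) after 96 h. The adult levels of Orm1 rose in the order control, 96 h, 24 h, 48 h. Over the alternative settings its log2 ratio at 96 h over the control (0.54) ranged from 0.27 to 0.85, wider than the counting interval. Orm2 stood at 0.976 CPM in P14 (63 UMIs), 71.2 in the control, then 1640.0 after 24 h, 2297 after 48 h and 74.5 after 96 h. It was 23.0-fold (21.6 to 24.6) higher at 24 h and 32.3-fold (30.3 to 34.4) at 48 h, and at 96 h the ratio was 1.05 (0.956 to 1.14), an interval that holds 1, so the control and 96 h levels did not differ beyond counting error. Among genes ranked by their ratio over the control, Orm2 was in place 10 of 9028 at 24 h and in place 12 of 9035 at 48 h. Orm3 was low throughout, with 0.155 CPM in P14, 3.30 in the control, then 20.6 after 24 h, 4.66 after 48 h and 1.26 after 96 h. These rest on 10, 44, 402, 97 and 17 UMIs. Orm3 was 6.23-fold (4.56 to 8.72) higher at 24 h than in the control and 4.42-fold (3.54 to 5.58) lower at 48 h than at 24 h. It entered that step only through its 24 h level, since its 48 h level was under the 5 CPM minimum. None of the other 9 genes was 2-fold lower between 24 h and 48 h, against 1.76% of 8817 genes, and none of the 10 was 2-fold higher in that step (1.78% of all genes).

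Lcn2, lipocalin 2, which starves bacteria of iron, showed the largest ratio of the 10 genes at 24 h. It stood at 51.3 CPM in P14, 72.3 in the control, then 4874 after 24 h, 3307 after 48 h and 229 after 96 h. It was 67.4-fold (63.3 to 71.9) higher than the control at 24 h, in place 3 of 9028 genes, 45.7-fold (42.9 to 48.8) at 48 h and 3.17-fold (2.95 to 3.41) at 96 h. Lcn2 was lower at 48 h than at 24 h by 1.47-fold (1.46 to 1.49), while Orm1, Orm2, Hp and the fibrinogen chains were between 1.25-fold and 1.55-fold higher. Orm3, the orosomucoid of low counts, was also highest at 24 h. Of 7 genes tested in the list of lipocalins and Lcn2 receptors, 4 were 2-fold higher at 24 h, Lcn2 and the 3 orosomucoids (Orm3 with the limit above), and the others were Ambp (log2 ratio 0.99), Apom (0.85) and the retinol carrier Rbp4 (-0.45). The neutrophil markers measured in the same hepatocytes are given with the leukocytes.

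Hp encodes haptoglobin. It stood at 4624 CPM in P14, 3126 in the control, then 5359 after 24 h, 8247 after 48 h and 2439.7 after 96 h. The ratio over the control was 1.71 (1.69 to 1.73) after 24 h, 2.64 (2.61 to 2.67) after 48 h and 0.780 (0.769 to 0.792) after 96 h. Hp was 2-fold higher at 48 h and at its lowest level of the 5 libraries at 96 h. In the list for haptoglobin and haemoglobin clearance, whose 9 genes include Hp, 1 of 8 genes tested was 2-fold higher at 24 h and none lower. That gene was Hmox1, haem oxygenase, with a log2 ratio of 1.26, followed by Hpx (0.80) and Hp (0.78). The lowest were Lrp1 (-0.54) and the haemoglobin genes Hbb-bs (-0.47) and Hbb-bt (-0.35). At 48 h 2 of 8 were 2-fold higher, Hp and Hpx (log2 ratio 1.801), the gene of the haem carrier haemopexin. The medians were -0.02 and 0.28.

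Itih3 stood at 1275 CPM in P14, 484 in the control, then 1087 after 24 h, 1202 after 48 h and 472 after 96 h. Itih4 stood at 2209.8 CPM in P14, 1136 in the control, then 1857 after 24 h, 1869 after 48 h and 997 after 96 h. Both were higher at 24 h and 48 h than in the control, and both were highest in P14. Itih3 was 2.25-fold (2.18 to 2.31) higher at 24 h and 2.48-fold (2.42 to 2.55) at 48 h. Itih4 was 1.63-fold and 1.64-fold (1.61 to 1.68) higher, and its levels at 24 h and 48 h did not differ beyond counting error (ratio 1.01, 0.992 to 1.02). Itih3 in the control and at 96 h did not differ beyond counting error either (ratio 0.976, 0.943 to 1.01). In the list of the 6 heavy chain and bikunin genes, Itih3 was the one that was 2-fold higher at 24 h, where the median log2 ratio was 0.75. Ambp, which encodes bikunin, followed at 0.99, Itih5 at 0.79, Itih4 at 0.71, Itih2 at 0.61 and Itih1 at -0.23. At 48 h Ambp (1.502) and Itih3 (1.31) were 2-fold higher, and Itih1 (-0.24) and Itih5 (-0.41) were below the control.

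The fibrinogen chains Fga, Fgb and Fgg, which are needed together to build the protein, were all at least 2-fold higher than the control at 24 h and higher again at 48 h. Fga stood at 2330.0 CPM in P14, 3241 in the control, then 7919.8 after 24 h, 9909 after 48 h and 3067 after 96 h. Fgb stood at 3710.1 CPM in P14, 3094 in the control, then 6365 after 24 h, 9848 after 48 h and 3743 after 96 h. Fgg stood at 2728 CPM in P14, 2798 in the control, then 5873 after 24 h, 8497 after 48 h and 3426 after 96 h. At 24 h the ratios over the control were 2.44 for Fga, 2.06 (2.03 to 2.08) for Fgb and 2.10 for Fgg, and at 48 h they were 3.06, 3.18 and 3.04. Fgb at 24 h was just past the threshold, and its log2 ratio was under 1 in 4 alternatives (lowest 0.96). That of Fgg was under 1 in 1 of them, with 10% to 20% mitochondrial UMIs (0.96). Fga came nearest to its 48 h level at 24 h, with a step of 1.25-fold (1.24 to 1.26) between these times, against 1.55-fold for Fgb and 1.45-fold for Fgg. At 96 h the ratio was 0.946 (0.934 to 0.959) for Fga, 1.21 (1.19 to 1.23) for Fgb and 1.22 (1.21 to 1.24) for Fgg. Other coagulation genes were mostly lower than the control at 24 h. Of 15 coagulation genes tested, none was 2-fold higher at 24 h and 2 were 2-fold lower, with a median log2 ratio of -0.58. Over all genes tested at 24 h the shares were 8.51% and 7.13%. Kng2 (0.78), Kng1 (0.30) and Pros1 (0.16) had the highest ratios, and Klkb1 (-1.89), Proc (-1.05) and F2 (-0.88), the prothrombin gene, the lowest. At 48 h 2 were 2-fold higher, the kininogens Kng1 (1.12) and Kng2 (1.10), and 1 was lower, with a median of -0.42. The shares over all genes were 8.3% and 7.63% at 48 h. With 15 genes, counts this small lie near the shares at both times.

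Between 48 h and 96 h 8 of the 9 genes that passed the minimum were at least 2-fold lower, where 4.24% of 8966 genes were, and none was 2-fold higher (4.38% of all). Orm2 was 30.8-fold (29.0 to 32.9) lower, Lcn2 14.4-fold (13.9 to 14.9), Orm1 6.402-fold (6.33 to 6.48) and Hp 3.38-fold. The fibrinogen chains were between 2.48-fold and 3.23-fold lower and Itih3 2.54-fold. Itih4 was 1.87-fold (1.84 to 1.91) lower.

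In P14 the orosomucoids were nearly absent while the other genes were within 3-fold of the control. Of 9 genes that passed the minimum, Itih3 was 2-fold higher than in the control, against 7.89% of 9011 genes, and Orm1 and Orm2, which passed only through their control levels, were 2-fold lower, against 13.8%. Orm1 was 609.6-fold (522 to 716) lower, in place 9004 of 9011 by its log2 ratio, and Orm2 73.0-fold (56.5 to 95.7) lower. The free RNA of the P14 library held 3.92 CPM of Orm1 and 0.938 of Orm2, close to the levels in hepatocytes. A P14 droplet held 466 UMIs of free RNA on average, against a median of 38923 UMIs in P14 hepatocytes. The part of free RNA in these 2 levels was not tested. Hp was 1.48-fold (1.46 to 1.49) higher in P14, Itih4 1.94-fold (1.91 to 1.98) and Fgb 1.20-fold, whereas Fgg had a ratio of 0.975, Fga of 0.719 and Lcn2 of 0.709 (0.660 to 0.762). The median log2 ratio was -0.04, and that of all genes -0.26. With TMM scaling the median of all genes was 0.02, the share of genes called higher against lower was 11.8% against 8.52%, and Itih4 joined Itih3 as 2-fold higher. In P14 4 of the 6 inter-alpha-inhibitor genes were 2-fold higher: Itih2 (log2 ratio 2.30), Ambp (1.54), Itih3 (1.39) and Itih1 (1.02), while Itih4 stood at 0.96 and Itih5 at -0.47. Of 15 coagulation genes 6 were 2-fold higher and none lower, with a median of 0.74, led by Serpinc1 (1.79), Kng1 (1.67) and F10 (1.62), with F9 (-0.75), Klkb1 (-0.74) and Pros1 (-0.65) lowest.

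Other acute phase genes were uneven in the same hepatocytes. Of 34 further genes of this kind tested at 24 h, 15 were 2-fold higher and 3 lower, with a median log2 ratio of 0.22. Over all genes tested, 8.51% were 2-fold higher and 7.13% lower at 24 h, and 8.3% and 7.63% at 48 h. At 96 h these shares were 4.07% and 1.88%, and in P14 7.89% and 13.8%. Of the 15, A2m and Il1rn passed the 5 CPM minimum only through their 24 h levels, so that their calls, as that of Orm3, follow in part from the minimum. The highest were the metallothioneins Mt2 (6.52) and Mt1 (6.13) and the pentraxin Apcs (4.05), and the lowest Lifr (-1.89), Hamp2 (-1.28) and Serpina1e (-1.12). Lifr is also in the list of inducing signals, and the related genes Serpina1a to Serpina1e are counted singly, so the counts and medians depend on the make-up of the list. At 48 h 11 of 32 were higher and 3 lower, with a median of 0.24, at 96 h 6 and 2 of 32 (-0.09), and in P14 8 and 13 of 34 (0.35). In P14 Serpina3m (3.65) and Cfb (1.73) were among the highest of them, and the lowest were Hamp (-8.43), Saa2 (-7.73) and Serpina3k (-7.69). Hamp passed the minimum only through the control. Of the 20 genes listed as negative acute phase genes, which textbooks describe as falling when the others rise, 3 were 2-fold higher and 2 lower at 24 h, with a median of -0.05. The highest were Apoa4 (1.56), Cyp3a11 (1.22) and Cyp2c29 (1.11), and the lowest Serpina6 (-2.55), Cyp2e1 (-1.65) and F12 (-0.73). In P14 10 were higher and 2 lower, with a median of 1.01, the highest being Serpina7 (3.78), Ahsg (3.01) and Serpina6 (2.62) and the lowest Mup3 (-12.6), Apoc3 (-1.03) and Cyp3a11 (-0.28). Of these Serpina7 passed the minimum only through P14 and Mup3 only through the control. Alb, Ttr and Apoa1 are in this list and also in the rule that picks hepatocytes. The counts and medians of the list thus depend in part on that rule.

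The receptors and factors of the inducing pathways were measured at low to moderate levels. Of 21 such genes 4 were 2-fold higher at 24 h and 3 were lower, with a median log2 ratio of 0.06. Over all genes tested at 24 h the shares were 8.51% and 7.13%. Osmr, the oncostatin M receptor, stood at 0.155 CPM in P14 and 0.451 in the control, and after PHx at 17.5, 12.0002 and 1.41 in order of time. It passed the minimum only through its 24 h and 48 h levels, so that its calls as 2-fold higher follow in part from the minimum. Il1r1, the interleukin-1 receptor, stood at 28.1 CPM in P14, 35.7 in the control, and 157, 70.4 and 28.9 in the 3 libraries after PHx in order of time, and Cebpb at 247, 298, 628, 487 and 249.8 in the same order. Each of these was highest at 24 h, as Lcn2 and Orm3 were. Cebpd (log2 ratio 1.69) was the fourth 2-fold higher gene, and Cebpa (-2.26), Lifr (-1.89) and Il1rap (-1.40) were the 3 lower ones. Tnfrsf1a (0.90), Nfkb1 (0.51), Nfkbiz (0.35), Il6ra (0.24), Stat3 (0.13), Jak1 (0.09), Nfkbia (0.06), Jak2 (-0.18), Hnf4a (-0.21), Rela (-0.40), Il6st (-0.42), Nr3c1 (-0.56) and Socs3 (-0.77) lay between. Socs3 stood at 1.90 CPM in P14, under the minimum, 69.7 in the control and 40.4, 22.5 and 12.9 after PHx. At 48 h 2 were 2-fold higher and 4 lower, at 96 h none and 2 of 20, and in P14 1, Il6ra (1.20), and 5 of 20. The shares over all genes were 8.3% and 7.63% at 48 h, 4.07% and 1.88% at 96 h, and 7.89% and 13.8% in P14. At 96 h Cebpd, 1 of the 2 lower genes, passed the minimum only through the control.

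To compare the spread among single hepatocytes, each was thinned to 5000 UMIs, at which all hepatocytes could be kept. A UMI of Lcn2 was then found in 13.8% of P14 hepatocytes, in 19.2% (16.8% to 21.9%, exact binomial interval) in the control, in all at 24 h and 48 h, and in 48.1% (44.5% to 51.7%) at 96 h. The unthinned shares were 53.9%, 51.5%, 100%, 100% and 86.4%. Orm2 was found in 0.190%, 21.6%, 96.9%, 97.8% and 21.01% of hepatocytes in the same order, and without thinning in 1.04%, 49.6%, 99.9%, 100% and 56.5%. Lcn2 at 24 h had a median of 16 UMIs per 5000, with 9 at the 10th and 28 at the 90th percentile, and in the control the 90th percentile was 1. In barcodes with T or NK cell markers, which should lack both genes, a UMI of Lcn2 was found in 3.85% in P14, 5.42%, 74.3%, 50.9% and 12.98%, and of Orm2 in 1.28%, 3.19%, 36.8%, 28.9% and 5.29%. Their median depth ran from 4643 to 7833 UMIs, against 18527 to 38923 in hepatocytes.

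**Figure D2:**
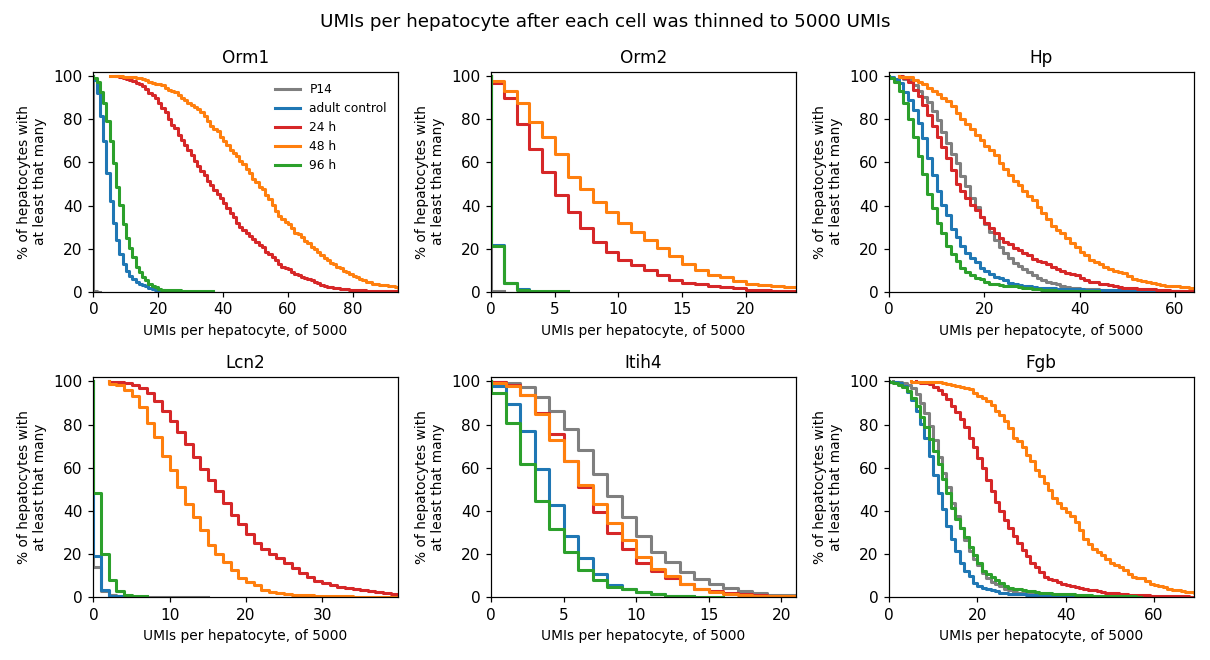
Share of hepatocytes with at least a given number of UMIs of 6 of the genes, after thinning each cell to 5000 UMIs; each line is 1 library. At 24 h and 48 h the whole curve of Lcn2, Orm1, Orm2 and Fgb lies to the right of the control, and the 24 h curve of Hp crosses that of P14 and has the longer upper tail (up to 171 UMIs, beyond the axis).

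The genes differed in how widely hepatocytes of 1 library varied beyond counting noise. At 24 h this coefficient of variation was 0.645 for Hp and 0.616 for Orm2, 0.382 for Lcn2, 0.388 for Orm1, 0.335 for Fgb and 0.246 for Fga. For Hp the 10th percentile, median and 90th percentile at 24 h were 7, 15 and 36 UMIs, and the 10% of cells with the most held 24.8% of its UMIs. For Fga they were 20, 31 and 44, and the top 10% held 15.5%. At 48 h the value was 0.484 for Hp, 0.603 for Orm2 and 0.234 for Fga. For Lcn2 it was 2.43 in P14, 1.22 in the control and 0.764 at 96 h, the libraries in which fewer than all thinned cells held a UMI of it. The P14 value of Lcn2 rests in part on 1 cell, which held 15 UMIs against a mean of 0.186. The sum of the 10 genes varied by 0.331 in the control, then 0.246 after 24 h, 0.204 after 48 h and 0.357 after 96 h.

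Across the hepatocytes of the 24 h and 48 h libraries Orm1 went with Orm2, Hp and Lcn2, and the fibrinogen chains went with each other. The following Spearman correlations describe thinned cells that share their library, depth and free RNA. They cover gene pairs that both average at least 0.5 UMIs, which leaves out Orm3 everywhere, Orm2 and Lcn2 in the control, Orm2 at 96 h, and Orm1, Orm2 and Lcn2 in P14. At 24 h, over 1170 hepatocytes, Orm1 went with Orm2 (0.50), Lcn2 (0.49) and Hp (0.46), and the fibrinogen chains went with each other (0.41 to 0.54). Orm2 had lower values with Hp (0.31) and Lcn2 (0.22), and Hp had 0.48 with Lcn2. With the fibrinogen chains Orm1 had -0.12 with Fga, -0.03 with Fgg and 0.10 with Fgb, whereas Fgb had 0.29 with Lcn2 and 0.35 with Hp, above the value of Orm2 with Lcn2. At 48 h, over 719 hepatocytes, Orm1 had 0.53 with Orm2, 0.40 with Hp and 0.39 with Lcn2, Orm2 had 0.16 with Hp and 0.21 with Lcn2, and Fgb had 0.68 with Fgg. Orm1 had -0.29 with Itih4 and -0.17 with Fga there. Hp had 0.40 with Fgb at 48 h, as high as with Orm1. In the adult control Orm1 had 0.50 with Hp, and in P14, where Orm1 was nearly absent, Hp had 0.41 with Fgb and 0.38 with Itih3.

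**Figure D3:**
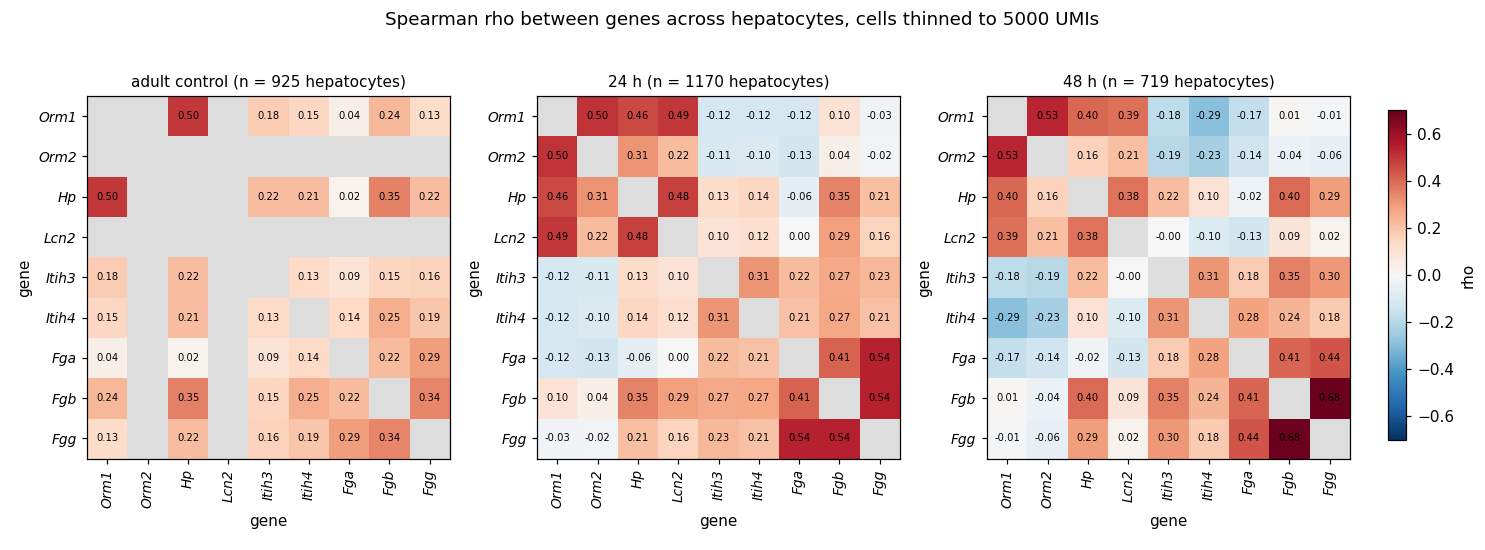
Spearman rho between pairs of the genes across hepatocytes of 3 libraries, with cells thinned to 5000 UMIs; grey squares are the diagonal and pairs with a gene under 0.5 UMIs per cell. At 24 h and 48 h the pairs of Orm1 with Orm2, Hp and Lcn2 (0.39 to 0.53) and those among the fibrinogen chains (0.41 to 0.68) are high, Orm2 with Lcn2 is lower (0.22 and 0.21), and the pairs of Orm1 or Orm2 with Itih4 and Fga are negative.

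Genes outside the 10 that went most closely with them were listed by a rule set after these correlations had been seen, the highest rho among 963 to 1138 genes of at least 0.5 UMIs. For Hp it was Hpx, haemopexin, in each of the 4 adult libraries, with 0.69 in the control, then 0.75 after 24 h, 0.78 after 48 h and 0.56 after 96 h, and Apoe and Apoa1 in P14 (both 0.59, with Hpx at 0.52). For Orm1 it was Apoa1 at 24 h (0.66) and 48 h (0.62), followed by the serum amyloid gene Saa1 (0.64 and 0.58). For Orm2, after Orm1, it was Apoa1 at 24 h (0.45) and Saa1 at 48 h (0.51). For Fgb, after Fgg, it was Alb at 24 h (0.53) and 48 h (0.66). Itih4 went most with Trf, transferrin, at both times (0.46 and 0.42). Lcn2 went most with Hpx at 24 h (0.52), and lowest against it was Cyp2c29 (-0.48).

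Hepatocytes change along the lobule from the portal to the central vein, so those of each library were ranked by the share of pericentral UMIs among pericentral plus periportal marker UMIs, split into 3 equal parts, and the outer parts, called pericentral and periportal, were compared. Between 104 and 288 cells of a library lay within 0.02 of a limit between parts. Lcn2 was lower in the pericentral part in all 5 libraries (ratio 0.597 in P14), with 39.3 against 86.0 CPM in the control (ratio 0.457, counting interval 0.315 to 0.654), 3416 against 5672 at 24 h (0.602, 0.582 to 0.624), 2724 against 3762 at 48 h (0.724) and a ratio of 0.348 (0.275 to 0.437) at 96 h. Hp had ratios of 0.613, 0.676, 0.710 and 0.702. Orm1 had 0.621 (0.579 to 0.665) in the control, 0.873 after 24 h, 0.966 (0.942 to 0.990) after 48 h and 0.720 (0.676 to 0.767) after 96 h, so its portal excess was smaller at the times of its highest levels. Orm2 had a pericentral excess after PHx, at 1.19 (1.12 to 1.26) at 24 h and 1.35 (1.27 to 1.44) at 48 h, whereas its intervals in the control (ratio 0.815) and at 96 h (1.16, 0.802 to 1.69) held 1. Of the other genes with counting intervals clear of 1 in the adult libraries, all had ratios under 1. All these intervals leave out the spread among cells beyond counting noise, so those close to 1 are too narrow to set a ratio apart from it. The fibrinogen chains lay between 0.668 and 0.943 in the adult libraries. In P14 the ratios of Hp, Itih3, Itih4 and the fibrinogen chains lay between 0.966 (Fga) and 1.137 (Itih4).

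**Figure D4:**
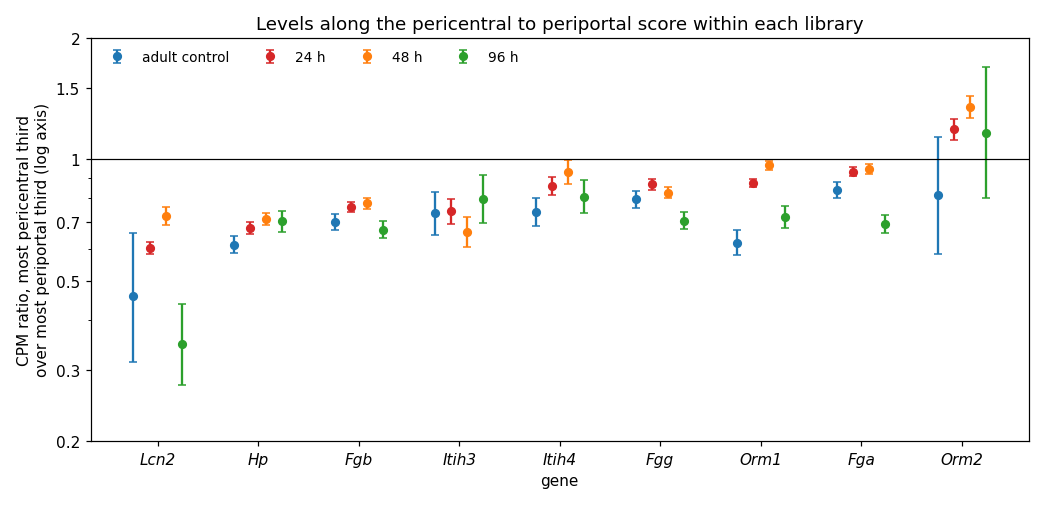
Ratio of CPM between the pericentral and the periportal part of hepatocytes in each adult library, on a log axis; bars are 95% counting intervals and the line marks 1. Lcn2 is lowest at 96 h (0.348), Orm1 moves from 0.621 in the control to 0.966 at 48 h, and Orm2 lies above 1 at 24 h and 48 h.

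Hepatocytes in cycle held most of the genes at lower levels. Cells with UMIs of at least 3 of 20 mitosis genes numbered 157 at 24 h, 279 at 48 h and 60 at 96 h, and were compared with 773, 312 and 583 cells without any. At 24 h their median depth before thinning was 25350 against 18785 UMIs, and the part of depth was not tested. At 24 h the ratio of cycling to non-cycling cells was 0.869 for Orm1, 0.871 for Orm2, 0.813 for Lcn2, 0.807 for Hp, 0.722 for Itih4 and 0.778 for Fga. At 48 h Orm1 stood at 12961 against 14021 CPM (ratio 0.924) and Fgb at 9313 against 10524 (0.885), and Itih4 had the lowest ratio (0.726). At 96 h the ratios of the fibrinogen chains were between 0.599 and 0.700. In P14, with 240 and 1562 cells, Hp had 0.663, Itih3 0.688 and Fgb 0.721. The adult control held 5 such cells and gives no comparison.

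Lcn2 and Hp are also known as neutrophil genes. Barcodes of at least 1000 UMIs outside the hepatocytes were classed by at least 3 markers of 1 cell type and a lower hepatocyte marker share than the free RNA. Those with neutrophil markers numbered 56 in P14, 52 in the control, and 174, 179 and 79 after PHx. They held Lcn2 at 9719 CPM in P14, 2348 in the control, then 8733 after 24 h, 11731 after 48 h and 2726 after 96 h. Their median depth was 6993.5, 3245.5, 5213, 9047 and 3765 UMIs in the same order. The neutrophil marker S100a9 stood in them at 123257, 62649, 135665, 172481 and 108441 CPM. The part of free RNA in the differences between libraries was not tested. The Lcn2 level in hepatocytes was lower than in these neutrophils in all 5 libraries, by a wide margin in P14, the adult control and at 96 h (51.3, 72.3 and 229 CPM). Hp in neutrophil barcodes was 1989.5, 2213, 3035, 3207 and 2458 CPM. Per UMI of Fgb, which leukocytes should lack, neutrophil barcodes held 5.36 to 12.9 UMIs of Hp, whereas T or NK barcodes held 1.32 to 1.91 and free RNA 1.55 to 2.01. Barcodes with monocyte, macrophage or dendritic markers held 2.98 to 4.79. The neutrophil gene S100a9 stood at 52.4 CPM in hepatocytes at 24 h against 135665 in neutrophils. The 11 neutrophil markers summed to 32.2 CPM in P14 hepatocytes, 11.9 in the control, and 109, 202 and 22.4 after PHx, with 7 to 10 of them under 5 CPM and 0 to 2 at 0 in each library. The part of neutrophil RNA in the hepatocyte levels of Lcn2 and Hp was not tested.

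**Figure D5:**
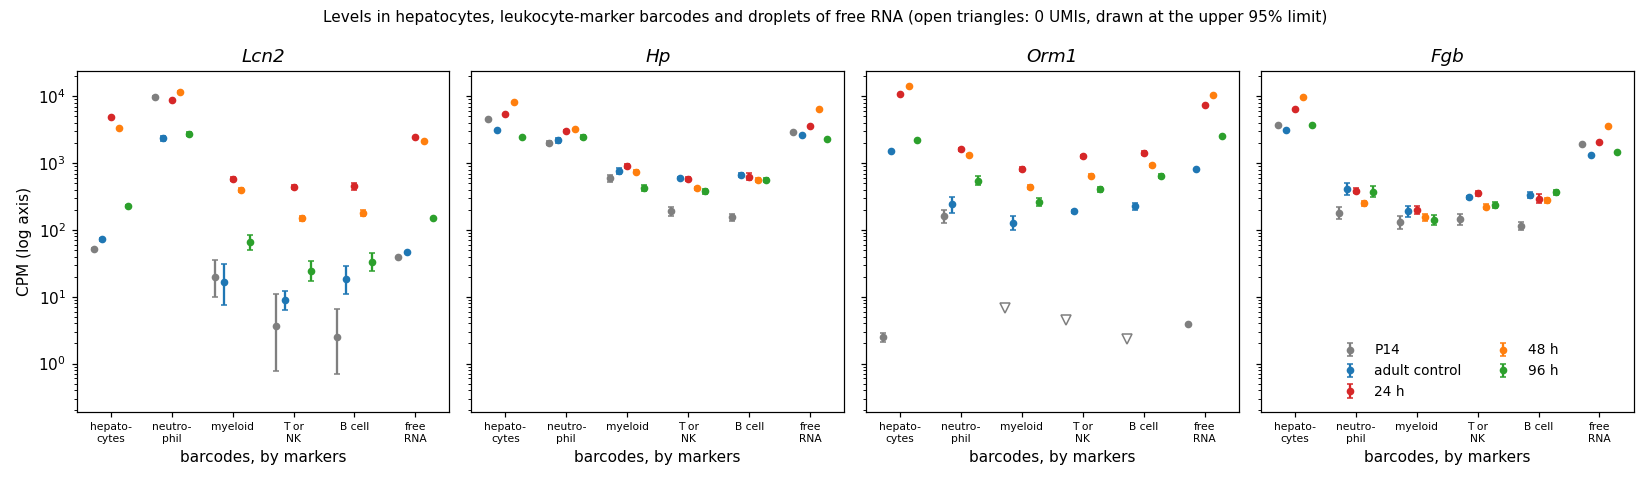
CPM of 4 genes in hepatocytes, in barcodes with neutrophil, myeloid (monocyte, macrophage or dendritic), T or NK and B cell markers, and in droplets of free RNA, on a log axis; bars are 95% Poisson intervals, and open triangles mark 0 UMIs at the upper limit. Neutrophil barcodes hold Lcn2 at 2348 to 11731 CPM, above the other leukocytes in each library, whereas Fgb is low in all leukocyte classes.

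Free RNA, taken from droplets with 255 to 1435 UMIs, carried the same genes. It held Orm1 at 3.92 CPM in P14, 809 in the control, then 7425 after 24 h, 10509 after 48 h and 2573 after 96 h. Hepatocytes held 1.88 times the free level of Orm1 in the control, 1.47 and 1.34 times at 24 h and 48 h, and 0.857 times at 96 h. For Hp the factors were 1.18, 1.47, 1.28 and 1.05, for Lcn2 1.55, 1.95, 1.55 and 1.499, and for Fga 1.48, 3.18, 2.93 and 2.49. After PHx Orm1 and Hp stood nearer to their level in free RNA than Lcn2 and Fga did. Each droplet held 290.0 to 1328 UMIs of free RNA on average.

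By root-mean-square distance of log2 levels centred over the 5 libraries, the non-member genes most like Orm2 among 3379 genes were Saa1 (0.55), Saa2 (0.87), Mt2, Cxcl14 and Saa3. Those most like Lcn2 were Mt2 (0.70), Mt1 (0.73), Ly6d (also in the B cell marker list), Cxcl14 and Btg3. Those nearest to Fgb were Tuba1c (0.11), Nme2, Pgp, Hpx and Cyp2c29, and those nearest to Itih4 Pnrc1 (0.20), Irf2bp2, Pnp, Slc25a25 and Foxo1. With 5 libraries these are likenesses of shape and carry no test.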

How the data were processed

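The authors deposited, for each of 5 libraries, a sparse matrix of raw UMI counts per gene and barcode, empty droplets included. Per the file headers it was written by software version 3.0.2. The submitters' processing notes name bcl2fastq 2.17.1.14, Cell Ranger, Seurat 3.1 and mm10. Filters and read assignment are not given in the sources used here. Counts were used as deposited and summed over hepatocytes of a library, with no test, since the labels give 1 library per group. The genes, lists and settings were chosen with earlier results of these data known. All 10 genes were described in full. Of the other lists the 3 highest and 3 lowest genes at 24 h were named, with those in P14 for 3 lists, and of the inter-alpha-inhibitor and inducing signal lists all genes. Of the genes so chosen 2 are not reported here. No doublet caller was run. Instead an alternative left out the 8% of hepatocytes with the most UMIs. The 2-fold call was tested on simulated data with counting noise only and with changes larger than 2-fold. That test cannot speak for calls near 2-fold or for spread between cells or animals. Python 3.11.15, numpy 2.4.6, scipy 1.17.1, Biopython 1.88 and, for TMM scaling, edgeR 4.0.16 in R 4.3.3 were used.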

Additional observations from a re-analysis of the deposited data

How the results depend on the processing

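Each comparison with the adult control was recomputed under 16 alternatives, 15 planned and 1, a mitochondrial window of 10% to 50%, chosen after seeing the data. With a 2-fold threshold the number of genes higher lay between 6 and 10 for the 24 h library (8 as reported, Orm3 counted in each of these but that with a 50 CPM minimum), at 8 for the 48 h library and at 1 for the 96 h library, and no gene was 2-fold lower in these 3 comparisons. In P14 it was 2 in place of 1 with 0% to 30% mitochondrial UMIs, with TMM scaling, with mitochondrial genes in the total and with acute phase genes left out of the total, and the number 2-fold lower was 2 to 3. With a 1.5-fold threshold 10 genes were higher at 24 h, 9 at 48 h and 2 in P14, where 19.0%, 17.4% and 14.3% of all genes tested were. At 24 h the share of all genes that were 2-fold higher was 10.4% where 6 genes were and 7.25% where 10 were. Over the settings with a 2-fold threshold it lay between 3.07% and 11.04% at 24 h and between 3.15% and 11.95% at 48 h. At 96 h it lay between 1.496% and 7.97%, and in P14 between 3.37% and 11.9%. The share 2-fold lower in P14 lay between 4.704% and 19.1%. No called ratio of the 10 genes changed sign. At 24 h the lowest number came with 10% to 20% mitochondrial UMIs, which left 87 hepatocytes in the adult control and 53 at 96 h; there Fgb and Fgg both had a log2 ratio of 0.96. Fgb was also under 2-fold with 0% to 30% mitochondrial UMIs (0.99), with free RNA subtracted (0.999) and by the mean of per-cell CPM (0.997). With at least 3% of UMIs from Alb, Apoa1 and Ttr, which left 144 hepatocytes at 24 h, Hp (1.11) and Itih4 (1.03) passed 2-fold. At 96 h the uncalled ratios of Orm2, Hp, Itih3, Itih4 and the fibrinogen chains took either sign. The log2 ratio of Orm3 at 24 h ranged from 1.20 (pseudocount 10) to 2.97. The label codes differ for the adult control, so a batch behind them cannot be told apart from the group. The reference library is also the one with the most free RNA, 1328 UMIs per droplet against 290.0 to 795, and with free RNA subtracted 7 genes were 2-fold higher at 24 h, Orm3 counted, in place of 8, and 8 at 48 h. No paired analysis was possible because each group has 1 library.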

Other observations

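In P14 the neutrophil barcodes held more Orm1 than the hepatocytes did. They held 81 Orm1 UMIs (160 CPM, 127 to 199) in 13 of 56 barcodes, at most 22 in one, while P14 hepatocytes stood at 2.49 CPM and the free RNA at 3.92. No Orm1 UMI was found in the 78 T or NK, 100 B cell, 31 monocyte, macrophage or dendritic, 39 endothelial and 31 erythroid barcodes of that library, and no Orm2 UMI in the 56 neutrophil barcodes. Of the 13 barcodes with Orm1, 12 had UMIs of all 3 of the granule genes Camp, Ngp and Ltf, against 12 of the other 43, with median depths of 13366 and 4674 UMIs. These granule genes were picked after the values had been seen, and the part of depth in the difference was not tested. In the control and at 96 h free RNA held Orm1 at 809 and 2573 CPM, with 1328 and 795 UMIs per droplet. It can bring an Orm1 UMI to a barcode, so the split by Orm1 there cannot show whether the P14 difference recurs. All 3 genes were in 1 of 33 control barcodes with Orm1 against 2 of 19 without. At 96 h the numbers were 4 of 67 against 1 of 12. At 24 h and 48 h they were 23 of 173 against 0 of 1 and 62 of 173 against 0 of 6, with too few barcodes without Orm1 to compare. Single barcodes held a large part of the Orm1 UMIs of the neutrophil barcodes at 24 h (493 of 2009) and 48 h (1001 of 2652). At 96 h the most in 1 barcode was 8 of 169.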
